A study of Mus musculus with 249 samples.

Results

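The genomic interval described here holds Kcnj2 and Sox9 on mouse chromosome 11, together with the gene desert between them. Its members were all 40 kb windows of chromosome 11 at chr11:109800001-114200000 (mm9), chosen by position and not by any measured value. They numbered 110 of 68162 windows in the genome-wide table and 110 of 3047 windows on chromosome 11.

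Sox9 encodes an HMG-box transcription factor that drives chondrogenesis and testis differentiation, and it is controlled by enhancers spread over the large gene desert that precedes it. Kcnj2, at the other end of that desert, encodes the inward-rectifier potassium channel Kir2.1 of muscle and nerve. In mammals this locus is a textbook case of neighbouring topologically associating domains (TADs), stretches of chromatin that contact themselves more than their neighbours, since rearrangements that move the domain border can bring Kcnj2 under the control of Sox9 enhancers. CTCF, a zinc-finger protein bound at many domain borders, halts loop extrusion by cohesin in a manner that depends on the orientation of its motif.

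Proximity was measured by genome architecture mapping (GAM), in which thin cryosections of fixed cells are cut, and slices of nuclei (nuclear profiles) are picked with a laser into tubes whose DNA is then amplified and read by sequencing. Windows that lie close together in the nucleus tend to be found in the same tube. All libraries, 54 of a full collection and 195 others, came from 46C cells, a Sox1-GFP knock-in line of mouse embryonic stem cells derived from E14tg2a, and from cryosections of 220 nm, with 4 profiles per tube according to the titles. The series description gives a lower average of nuclear profiles per library. The titles placed the libraries in 11 experiments and 20 groups. The largest experiment was the full collection. The others compared cresyl violet-stained with unstained sections, early with late freezing, frozen-post-incubation with unfrozen tubes, a large with a small amplification kit, 2 volumes of proteinase K (titled 1ul-mdc-pk and 2ul-mdc-pk, with smaller volumes in the protocol texts), 3 numbers of PCR cycles, and the reagent-volume protocols a, b and c. A further 3 experiments were held here only as libraries titled unstained, those of the eosin, SYBR Gold, and propidium iodide (PI) staining and freezing tests, although for SYBR Gold the protocol given with them includes the stain. Groups follow the titles. The protocol text of the full collection describes cresyl violet staining, a stain that 16 of the other 195 libraries had by title, and in that comparison collection and stain cannot be told apart. There was no perturbed locus, no second cell line and no differentiated sample, so every comparison concerned position along the chromosome or collection protocol. The files held no measure of expression, so the labelled cell type could not be checked against its markers.

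Each library scored each window as positive or not. Library coverage, the share of all windows positive, ran from 3.40% to 45.2%, with a median of 17.1%. The depth behind a call was unknown. Nothing in the labels told which libraries came from separate cultures, so p-values measured the spread between libraries. No 2 libraries held identical calls.

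The interval held 19 protein-coding genes in the GENCODE annotation of NCBIM37 (the Ensembl name of mm9). The halfway point between the gene windows, 111.8 Mb, divided the interval into a Kcnj2 side of 50 windows with 8 of these genes and a Sox9 side of 60 windows with 11. Kcnj2 (ENSMUSG00000041695.2, chr11:110927478-110938135, + strand) and Sox9 (ENSMUSG00000000567.4, chr11:112643538-112649074, + strand) each lay inside 1 window and were separated by 1705 kb. Of the 42 windows strictly between the gene windows, 1 overlapped a gene annotated as protein-coding, the predicted gene Gm11678. The desert also held 4 pseudogenes, 2 processed transcripts and the lincRNA BC006965, which extends to the Sox9 window on the opposite strand. On the far side of Kcnj2 lay Kcnj16, which encodes the channel subunit Kir5.1, Map2k6, a kinase that activates p38, and the lipid transporter family cluster Abca5, Abca6, Abca9, Abca8a and Abca8b. On the far side of Sox9 lay the zinc transporter gene Slc39a11, the somatostatin receptor gene Sstr2, the Golgi complex gene Cog1, the Cdc42 effector gene Cdc42ep4 and Sdk2, which encodes a cell adhesion protein.

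The sequences shown next are those that carry the motif orientation at the position of lowest linkage in the desert, described further on, and in the Kcnj2 window. The motif searched, on both strands, was a core of the CTCF motif, CCA followed by any 2 bases, AG, any 2 bases and GGC. Its 12 bases stand in capitals in 30 bases read 5′ to 3′ on the strand of the match. In mm9, 2 matches lay in the window that starts at the lowest position, both intergenic and on the − strand, at chr11:111258941-111258970 and chr11:111265596-111265625. The window to the left held 1 intergenic match on the + strand, at chr11:111219655-111219684. The window to the right held 1 intergenic match on the − strand, at chr11:111307284-111307313.
Desert match 1 (+): aggacctatCCAACAGTAGGCccactgtat
Desert match 2 (−): tcaacccagCCACCAGCAGGCagagggtag
Desert match 3 (−): gggagggggCCAGGAGAGGGCtgggagaga
Desert match 4 (−): atgtaataaCCACCAGAGGGCgaaagagat

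The Kcnj2 window held 4 matches. The first, intergenic and at chr11:110927403-110927432 on the + strand, ended 55 bases before the annotated start of Kcnj2, counted from the last base in capitals. The second lay in the Kcnj2 coding exon, at chr11:110933747-110933776 on the − strand. The others were intergenic and lay downstream of the gene, at chr11:110950232-110950261 on the − strand and chr11:110957139-110957168 on the + strand.
Kcnj2 match 1 (+): tccgattggCCAACAGTGGGCagagggcgg
Kcnj2 match 2 (−): catgagcttCCACAAGGTGGCtctttcgaa
Kcnj2 match 3 (−): ggttccagcCCATAAGGAGGCtggaagggt
Kcnj2 match 4 (+): tgcatgtggCCATCAGAGGGCaggaatctt

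The Sox9 window held no match, which says only that these letters were not in that window. The motif is common at this window size. At least 1 match was present in 84.5% of chromosome 11 windows, in 85.5% of the windows of the interval and in 34 of the 42 desert windows (81.0%). A match is a description of the sequence and was not tested for binding.

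The Kcnj2 and Sox9 windows were found in similar numbers of libraries. The Kcnj2 window (chr11:110920001-110960000) was positive in 46 libraries, 18.5% (95% Wilson interval 14.1% to 23.8%). The Sox9 window (chr11:112640001-112680000) was positive in 54 libraries, 21.7% (17% to 27.2%). The intervals overlapped, and among the libraries that held a single gene window, 34 held Sox9 and 26 held Kcnj2 (exact McNemar test, two-sided, p = 0.366). Across experiments, Sox9 was positive in between 7.41% of libraries (4 of 54, the full collection) and 50% (10 of 20, the PI staining and freezing test). For Kcnj2 the range ran from 13.0% (7 of 54, the full collection) to 40% (8 of 20, the same PI test).

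At the other named genes, the window of the annotated gene start was positive in 34 to 56 libraries. The order ran from Abca6 (34 libraries) through Abca8b and Map2k6 (39 each), Abca8a (40), Gm11678, Sdk2 and 1700092K14Rik (42 each), Abca9 (44), Kcnj2 (46), Abca5 and Kcnj16 (48 each) and Slc39a11, Sstr2 and Cog1 in a shared window (49), to Cpsf4l (52), Sox9 (54), D11Wsu99e and D11Wsu47e in a shared window (55), and Cdc42ep4 (56). Neighbours in this order had overlapping Wilson intervals, and even the extremes touched, at 9.94% to 18.5% for Abca6 and 17.7% to 28.1% for Cdc42ep4.

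Over all 110 windows, detection ran from 32 to 65 libraries with a median of 48, below the median of 56 for the other chromosome 11 windows that were positive in at least 25 libraries. All 110 windows passed that minimum, and 98 passed a minimum of 40. The least often detected window lay in the desert, 0.28 Mb beyond the Kcnj2 window, at chr11:111200001-111240000. No protein-coding gene overlapped it, and 32 libraries held it. The most often detected, with 65 libraries, lay in Sdk2 at chr11:113640001-113680000. Windows of the Kcnj2 side had a median of 44 libraries (32 to 59) and those of the Sox9 side a median of 50 (33 to 65). In the desert itself the median was 47 (32 to 59). Per library, the Sox9 side exceeded the Kcnj2 side by a mean of 2.29 percentage points ± 1.2 (SE over all libraries), and by direction in 101 libraries against 78.

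**Figure D1:**
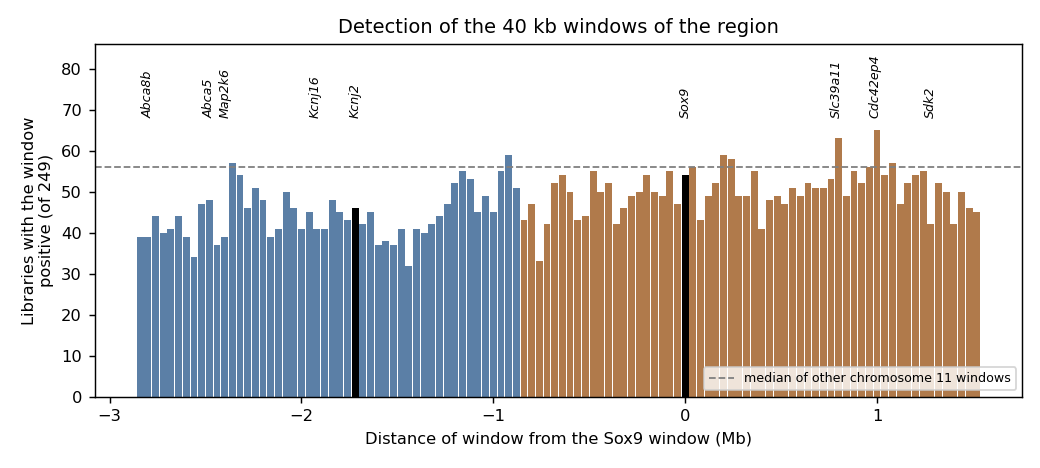
Number of libraries in which each 40 kb window was positive, against the distance of the window from the Sox9 window in Mb. Blue bars are the Kcnj2 side, brown bars the Sox9 side and black bars the Kcnj2 and Sox9 windows, and the dashed line is the median of 56 for the other chromosome 11 windows, above nearly all bars.

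Base composition differed along the interval in the same direction as detection. Mean GC content was 40.2% on the Kcnj2 side, 46.3% on the Sox9 side and 40.5% in the desert, against 43.8% over chromosome 11. Across the 110 windows, which share libraries and neighbours, detection and GC content had Pearson's r of 0.48 and Spearman's rho of 0.46. Over all chromosome 11 windows positive in at least 25 libraries, Pearson's r was 0.24. The part of GC content in the difference between the sides was not tested.

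Per library, the share of the interval that was positive ran from 0% to 80.9%, with a median of 9.09%. The interval was missed altogether in 69 libraries, 56 held 1 to 10 of its windows, and 28 held over 50% of it. No library held all of it. Among the 180 libraries that held any of it, the longest unbroken run of positive windows had a median of 6 and reached 62.

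Whether the interval was found less often than the rest of its chromosome was asked within each library. The mean share of positive windows was 19.1% in the interval and 22.6% in the rest of chromosome 11, or −3.51 points ± 1.42 for the interval minus the rest (SE), and the interval was lower in 160 libraries and higher in 89. The two-sided sign-flip permutation test gave p = 0.0141, which did not pass the threshold after Benjamini-Hochberg adjustment over the 6 sign-flip tests made here (adjusted p = 0.0847). Against all other autosomal windows in place of chromosome 11, the difference was −1.15 points (permutation p = 0.397). Among the 11 experiments the mean difference was below 0 in 8, from −9.46 points in the PCR cycle test (n = 12) to 8.66 points in the SYBR Gold test (n = 10). A permutation test across experiments did not separate them (F = 0.83, p = 0.603).

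The protocol comparisons were made window by window with Fisher's exact test, adjusted over the genome. In the full collection the interval had a mean positive share of 12.6% and the rest of chromosome 11 a mean of 17.7%. Over all libraries these means were 19.1% and 22.6%. The full collection against the other 195 libraries gave no called window among 63543 tested (0% called), and thus none of the 110. At an unadjusted p under 0.05, 27 windows of the interval (24.5%) were less often positive in the full collection and none more often, beside 6.59% of all windows in either direction. These windows are neighbours and were often cut together. The test took no account of library coverage, and the full collection was also lower over the rest of chromosome 11. Sox9 was positive in 4 of 54 libraries against 50 of 195 (unadjusted p = 0.00278, adjusted p = 0.535, exact test), and Kcnj2 in 7 of 54 against 39 of 195 (p = 0.322, adjusted p = 0.956). Cresyl violet-stained against unstained libraries of the same experiment gave no called window among 59680 (0%). At an unadjusted p under 0.05 there was 1 window of the interval among 107 tested, beside 2.61% of all windows. There, 3 of 16 stained and 1 of 10 unstained libraries held Sox9, and 2 of 16 and 2 of 10 held Kcnj2.

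Sox9 and Kcnj2 were found together more often than their separate frequencies gave. Their linkage stood near the mean of windows as far apart. Both were positive in 20 libraries, against 9.98 expected if they were cut independently. Kcnj2 without Sox9 was found in 26, Sox9 without Kcnj2 in 34 and neither in 169 libraries. The normalized linkage disequilibrium (Dʹ), which is 0 for independent windows and 1 where the rarer window is always found with the other, was 0.278 ± 0.0852 (jackknife SE over libraries). Fisher's exact test gave p = 0.000236, and p = 0.000528 after adjustment over all chromosome 11 pairs up to 4 Mb apart. The excess remained when libraries were stratified by tertile of coverage (20 against 10.5 expected, exact p = 0.000549) or by experiment (20 against 11.6, exact p = 0.00124). Linkage at this distance is general. Of chromosome 11 pairs 1640 to 4000 kb apart, 76% were called linked. The 2910 pairs exactly 1720 kb apart had a mean Dʹ of 0.254 with an SD of 0.0886, so the Sox9 and Kcnj2 pair stood 0.27 SD above that mean, at percentile 60.8.

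The desert between the genes was found mostly in libraries that held a gene window. Libraries with both gene windows had a median of 23 of the 42 desert windows positive (2 to 34), those with Kcnj2 alone 15.5 (1 to 35) and those with Sox9 alone 16 (0 to 33). Among the 169 libraries with neither, the median was 0 (0 to 34) and 100 held none of the desert. No library with both genes held every desert window, and the ranges of the groups overlapped. Median coverage was 19.7% in libraries with both, 18.6% with Kcnj2 alone, 19.1% with Sox9 alone and 16.2% with neither.

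**Figure D2:**
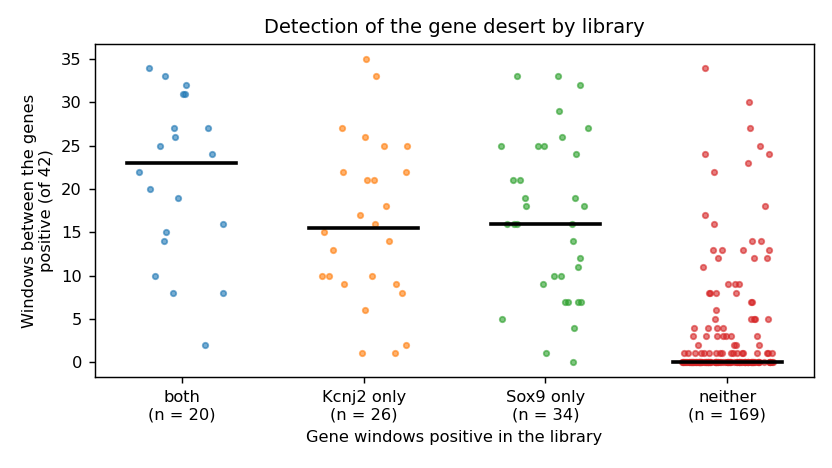
Number of the 42 windows between the genes that were positive in each library (points), with libraries set out by which gene windows they held; black lines are medians (23, 15.5, 16 and 0) and points are spread sideways only to be seen. Most libraries without a gene window sit at or near 0.

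Linkage of the Sox9 window was compared between its desert side and its far side at equal distances from 80 to 1080 kb. On the far side, which runs over Slc39a11 to Cpsf4l, Cdc42ep4 and the end of Sdk2, mean Dʹ over 26 windows was 0.471 ± 0.0448 (jackknife SE), from 0.267 to 0.626. On the desert side it was 0.403 ± 0.05, from 0.248 to 0.531. The chromosome 11 mean at these distances was 0.397, which the desert side matched within its error. The difference in Dʹ was −0.0680 ± 0.0445, and it was of similar size at 80 to 400 kb (−0.0700 ± 0.0502), 440 to 800 kb (−0.0666 ± 0.0610) and 840 to 1080 kb (−0.0673 ± 0.0705). The test was made on each library's product of deviations from the mean detection of the 2 windows, whose average is the covariance of the pair. The desert side was lower by 0.0129 ± 0.00733 on this covariance scale (SE over all libraries, 95% interval −0.0273 to 0.00141), and this did not pass the threshold (sign-flip permutation p = 0.0787, adjusted p = 0.236). Without the early-freezing test the covariance difference was −0.0163 (p = 0.0236, adjusted p = 0.0707).

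Kcnj2 had no side of stronger linkage over the whole range. Mean Dʹ was 0.365 ± 0.0459 towards the desert and 0.349 ± 0.0478 towards the Abca cluster, both below the same chromosome 11 mean of 0.397. The covariance difference was 0.00104 ± 0.00711 (95% interval −0.0129 to 0.0150, permutation p = 0.884, adjusted p = 0.884). By distance the order changed from band to band, which was noticed after the values were seen and is given without a test. At 80 to 400 kb the desert side had the higher mean Dʹ, 0.471 ± 0.0654 against 0.362 ± 0.0569 on the side of Kcnj16, mostly over the gene-free stretch beyond it. At 440 to 800 kb the far side had the higher mean, 0.400 ± 0.0524 against 0.317 ± 0.0492, with the highest single value of 0.556 at a window in Map2k6. At 840 to 1080 kb the desert side was again the higher, 0.299 ± 0.0591 against 0.261 ± 0.0703, a difference within its error (0.0388 ± 0.0819).

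**Figure D3:**
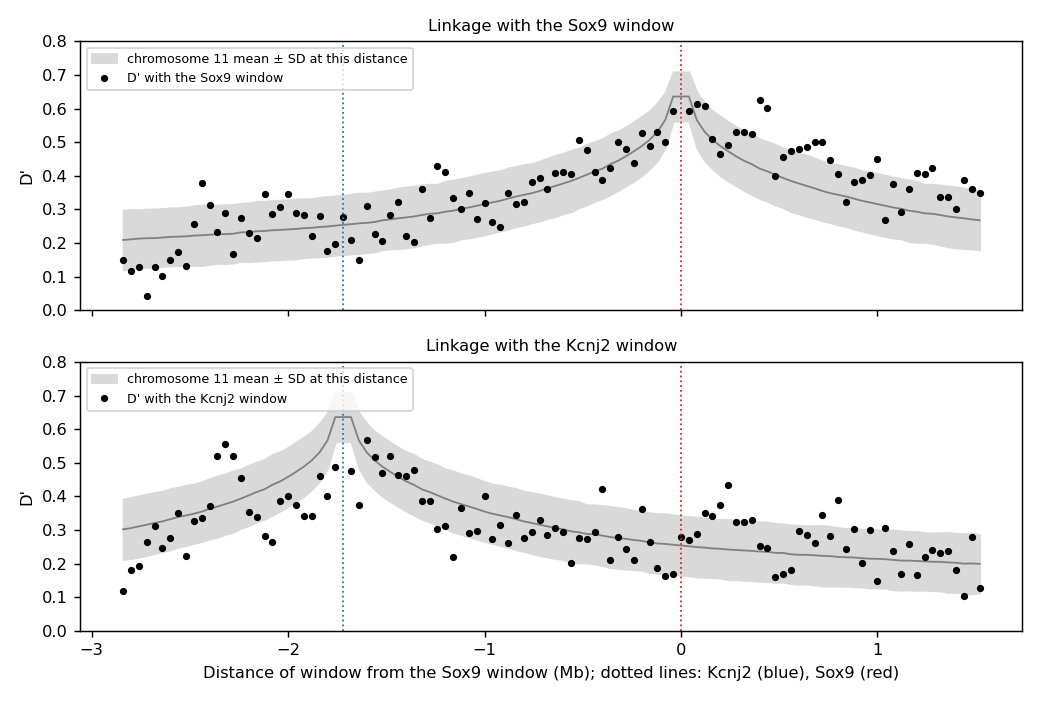
Normalized linkage (Dʹ) of every window with the Sox9 window (upper panel) and with the Kcnj2 window (lower panel), against distance from the Sox9 window in Mb. Points are windows, and the grey line and band are the mean ± SD of all chromosome 11 pairs at that distance; Sox9 lies near or above the line on its far side (mean 0.471 against 0.397), and Kcnj2 below it over the stretch beyond Kcnj16.

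Linkage of the genes with named neighbours lay on both sides of the distance means. Each neighbour was represented by the window of its annotated start, and other windows of a gene could differ. The windows of Kcnj2 and Kcnj16, 120 kb apart, were both positive in 26 libraries (8.87 expected) with a Dʹ of 0.461 ± 0.0845. Its z-score, the distance from the mean of pairs as far apart in units of their SD, was −0.81. Kcnj2 and the start window of Map2k6, 680 kb apart, had a Dʹ of 0.371 ± 0.0922 (z = 0.09), near the mean. Kcnj2 and the start window of Abca6, 840 kb apart, had a Dʹ of 0.351 ± 0.1 (z = 0.14). Other Map2k6 windows stood higher with Kcnj2 (z = 1.65, 1.99 and 1.48) and other Abca6 windows lower (z = −0.87 and −0.61). Kcnj2 and Abca8b, 1080 kb apart, had a Dʹ of 0.182 ± 0.0855 (z = −1.36). Sox9 and Gm11678 in the desert, 360 kb apart, had a Dʹ of 0.422 ± 0.0921 (z = −0.14). On its far side, Sox9 and the window shared by the starts of Slc39a11, Sstr2 and Cog1, 840 kb away, had a Dʹ of 0.322 ± 0.0827, also near the mean (z = −0.18). The other Slc39a11 windows stood higher, with z-scores with Sox9 from −0.03 to 2.11. Sox9 and the start window of Sdk2 had a Dʹ of 0.422 ± 0.0921 at 1280 kb, with a z-score of 1.53. Towards the other end, Sox9 and Map2k6 (2400 kb) had a Dʹ of 0.312 ± 0.0954 (z = 1.00), while Sox9 and Abca8a (2720 kb) were both positive in 10 libraries against 8.67 expected (Dʹ 0.0423 ± 0.0811, z = −1.98). Among pairs not listed, Kcnj2 with the genes beyond Sox9 had z-scores from −0.23 to 0.97. Every SE here was about as large as the SD of pairs at equal distance, so a single pair within 1 SD of the mean could not be separated from an average one.

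Whether the desert divided the interval into 2 domains was tested at the fixed position halfway between the genes, 111.8 Mb. Pairs of windows 200 to 1600 kb apart were compared at equal distance, 2340 pairs within a side and 810 across. Mean Dʹ was 0.310 ± 0.0242 within the Kcnj2 side, 0.383 ± 0.0282 within the Sox9 side and 0.345 ± 0.0251 across, with a chromosome 11 mean of 0.343 at the same distances. The mean of both sides exceeded pairs across by 0.00122 ± 0.0227 in Dʹ. On the covariance scale the difference was 0.00221 ± 0.00392 (SE over all libraries, 95% interval −0.00547 to 0.00989), with a sign-flip permutation p of 0.576 (adjusted p = 0.692). The same contrast at 2873 positions along chromosome 11 ran from −0.0138 to 0.0188, with 5% of positions below −0.00867 and 5% above 0.00880, and 111.8 Mb stood at percentile 66.3. A contrast as large as the upper 5% of positions thus lay within the interval of this estimate, and a p that misses the threshold does not show that the sides were not separate.

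The position of a split could also be chosen in part of the libraries and tested in the rest. The lowest insulation position in the full collection, 112.16 Mb, gave a covariance difference of −0.00322 ± 0.00401 in the other 195 libraries (95% interval −0.0111 to 0.00465, permutation p = 0.428, adjusted p = 0.652). The lowest position in those libraries, 111.12 Mb, gave 0.00541 ± 0.00661 in the 54 of the full collection (−0.00754 to 0.0184, p = 0.434, adjusted p = 0.652). Neither passed the threshold, and the positions chosen from the separate sets of libraries were 1.04 Mb apart.

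Linkage was stronger within the Sox9 side than within the Kcnj2 side. The difference in mean Dʹ, 0.0728 ± 0.0323, was noticed after the values were seen and is given without a test. At every distance band up to 1600 kb the order was the same. Median Dʹ at 200 to 400 kb was 0.469 within the Sox9 side and 0.416 within the Kcnj2 side, at 440 to 800 kb 0.412 and 0.337, and at 840 to 1600 kb 0.348 and 0.269. The chromosome 11 medians for these bands were 0.453, 0.376 and 0.293, between the sides in each case. The Sox9 side was also detected more often (median 50 against 44 libraries) and had the higher mean GC content (46.3% against 40.2%). The part of either in the difference in linkage was not tested. Of pairs 200 to 4000 kb apart, 66.9% within the Sox9 side and 32.9% within the Kcnj2 side were above the mean of their distance, beside 49.8% of all chromosome 11 pairs.

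In the same distance range, 5178 of the 5520 pairs of the interval (93.8%) were called linked by Fisher's exact test at an adjusted p under 0.05, beside 83.7% of 278448 chromosome 11 pairs. The interval holds fewer of the longest distances than the chromosome does. Weighting each distance on chromosome 11 by its number of pairs in the interval gave a chromosome share of 89.2%. By band, the interval and the chromosome weighted in this way had 100% and 99.9% at 200 to 400 kb, 99.2% and 99.1% at 440 to 800 kb, 96.7% and 94.1% at 840 to 1600 kb, and 88.1% and 79.1% at 1640 to 4000 kb. Without the weights the chromosome shares of these bands were 99.9%, 99%, 93.9% and 76%. With libraries stratified by coverage, the shares in the longest band were 77.7% and 56.4%. Pairs across the halfway point in the longest band were called linked in 88.8% (1895 of 2135) beside 78.3% of chromosome 11 pairs at the same distances, and had a mean Dʹ of 0.254 beside 0.221. Within the Sox9 side the share was 85.3% (162 of 190) beside 85.9%, and within the Kcnj2 side it was 68.9% (31 of 45) beside 87.5%, with a mean Dʹ of 0.193 beside 0.252. These shares are a description, since pairs of neighbouring windows share libraries. No pair of the interval was called negatively linked, with or without the stratification.

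**Figure D4:**
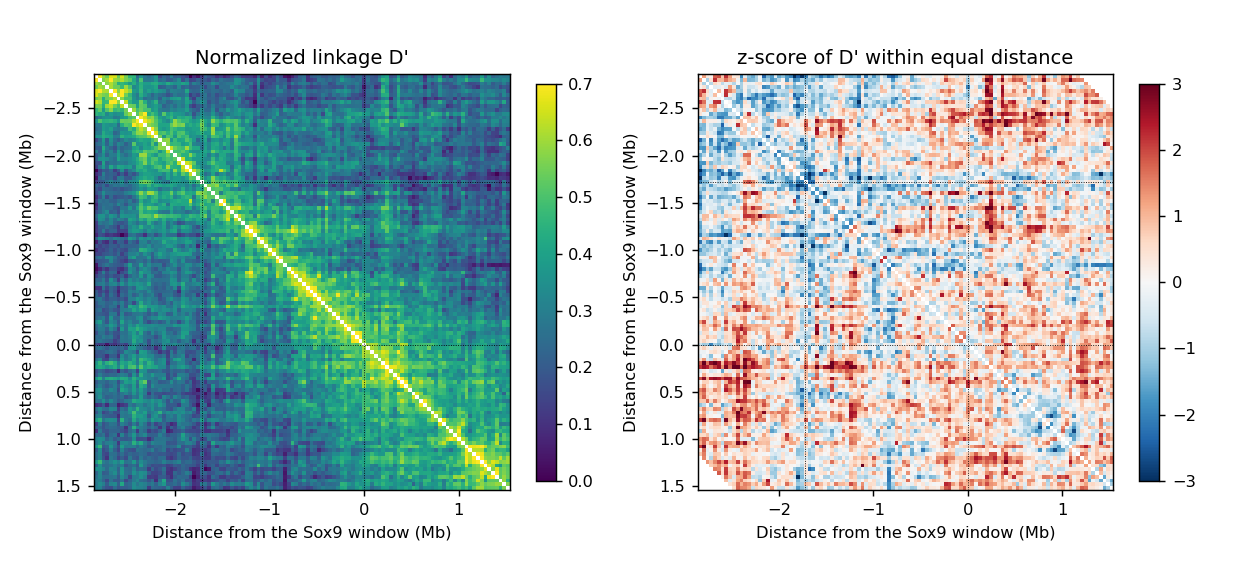
Normalized linkage Dʹ (left) and its z-score among chromosome 11 pairs of equal distance (right) for all pairs of the 110 windows, with both axes in Mb from the Sox9 window, dotted lines at Kcnj2 and Sox9, colours limited to 0 to 0.7 and −3 to 3, and z not drawn beyond 4 Mb. The block around and beyond Sox9 is mostly red (66.9% of pairs within the Sox9 side above the mean of their distance) and the block around Kcnj2 mostly blue (32.9%).

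The single pairs farthest from the mean of their distance are given as a description. The highest, with a z-score of 3.67, joined a window in Map2k6 (starting at 110.32 Mb) with a window between Sox9 and Slc39a11 (113.04 Mb), 2720 kb apart. Both were positive in 26 libraries against 8.89 expected (Dʹ 0.533 ± 0.0918, where the distance mean was 0.214), and the 8 surrounding pairs averaged 1.38. The third highest lay close by, from 110.28 Mb in Map2k6 to 112.88 Mb, with 36 libraries against 13.3 expected (Dʹ 0.520 ± 0.0767, z = 3.47, surroundings 1.39). The second highest joined 111.44 and 111.88 Mb within the desert, 440 kb apart (26 libraries against 6.89, Dʹ 0.732 ± 0.0898, z = 3.58).

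The lowest pairs all involved windows of the Kcnj2 side. A window in Abca8b at the start of the interval and one in Kcnj16 (110.8 Mb) were both positive in 7 libraries against 7.52 expected (Dʹ −0.0689 ± 0.305, z = −4.19). A window in Abca6 (110.08 Mb) and one in the desert (111.48 Mb) shared 7 libraries against 7.51 (Dʹ −0.0679 ± 0.304, z = −3.79). A window at the end of Kcnj16 (110.88 Mb) and one in the desert (111.6 Mb) shared 11 against 8.46 (Dʹ 0.0735 ± 0.0757, z = −3.16). Of the 5520 pairs, 11 stood over 3 SD above (0.199%, a share like the 0.192% of chromosome 11 pairs) and 5 over 3 SD below (0.0906%, a lower share than the 0.283% of chromosome 11 pairs).

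The insulation score, the mean Dʹ between the 400 kb on either side of a position, showed a shallow dip in the desert close to Kcnj2. A low score marks a position across which windows were less linked. The interval held 5 of the 120 local minima of chromosome 11. The lowest between the genes was at 111.24 Mb, with a score of 0.369 ± 0.0303 (jackknife SE), at percentile 10.5 of chromosome 11 positions, whose mean was 0.431 with an SD of 0.0467. The other minimum between the genes was at 111.96 Mb, with 0.387 ± 0.0337 (percentile 17.1). Their SEs exceeded the gap between them. At the fixed halfway position between these minima, 111.8 Mb, the score was 0.438 ± 0.0331, close to the chromosome mean.

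Outside the desert, the lowest score of the interval stood at 110.2 Mb, between Abca5 and Map2k6, with 0.346 ± 0.0443 (percentile 4.70), and another minimum at 110.88 Mb, at the end of Kcnj16, with 0.374 ± 0.0346 (percentile 12.2). The minimum at 113.32 Mb, within Slc39a11, was at 0.422 ± 0.0386, near the chromosome mean (percentile 41.2). At the Sox9 window the score was 0.466 ± 0.0373 (percentile 76.6), and at the Kcnj2 window 0.387 ± 0.0343 (percentile 16.9). The Sox9 score was within 1 SE of the chromosome mean, and neither score was tested against it.

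The position of the desert minimum was not fixed by these libraries. Leaving out each experiment in turn placed it from 111.12 to 111.96 Mb, at 111.96 Mb without the early-freezing test and at 111.92 Mb without the SYBR Gold test. A square of 200 kb placed it at 110.96 Mb and a square of 600 kb at 111.4 Mb. The least often detected window of the interval, with 32 libraries, ends at the position of this minimum, and the part of low detection in the dip was not tested. The minimum fell between desert match 1, on the + strand, and desert match 2, on the − strand. With a match in most windows, this pattern can be read only as the sequence at that place.

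**Figure D5:**
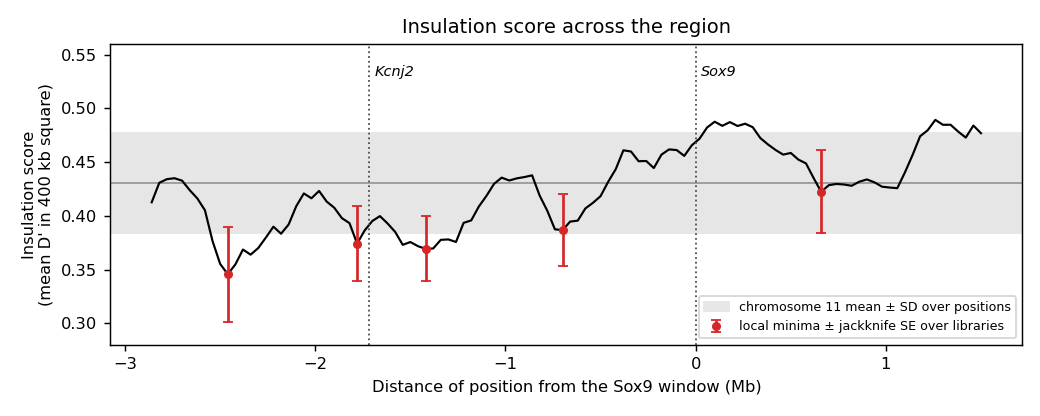
Insulation score (mean Dʹ in a 400 kb square) at each position against distance from the Sox9 window in Mb (black line), with red points and bars for the 5 local minima ± jackknife SE over libraries. The grey line and band are the chromosome 11 mean ± SD over positions (0.431 ± 0.0467); the score is 0.387 at Kcnj2 and 0.466 at Sox9, and the bars of the desert minima overlap.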

How the data were processed

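The authors aligned reads to mm9 with Bowtie2 (version 2.1 in the submitters' processing notes), removed duplicates with Samtools and, with GAMtools, called a 40 kb window positive at 4 reads. The deposited table holds these presence calls (1 or 0) for 249 libraries that had passed quality control. All 249 columns were matched by library name, and 0 were left over. Read depth is unknown, and a 0 does not separate absence from too few reads.

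Linkage used chromosome 11 windows positive in at least 25 libraries. Contrasts were tested over libraries by two-sided sign-flip permutation (100000 resamples), and windows and pairs by Fisher's exact test with Benjamini-Hochberg adjustment over all tested. Intervals are 95%, from 1.96 SE. The split and side contrasts, Fisher's exact test and Dʹ were run on simulated data, with outcomes not given here. The other methods were not. Genes came from GENCODE vM1 and sequence from NCBIM37, whose chromosome lengths fit the windows on 21 of 21 chromosomes. Python 3.11.15, NumPy 2.4.6 and SciPy 1.17.1 were used. Named genes were all protein-coding genes overlapping the interval, and named pairs those of Sox9 or Kcnj2 with each, plus the 3 highest and 3 lowest z-scores at 200 kb or more. The text gives only part of the pairs with Sox9 or Kcnj2. Members and lists were chosen with earlier results of these data known.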

Additional observations from a re-analysis of the deposited data

Results flagged for a closer look

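Within groups of 4 to 10 libraries, 4 values stood apart from the rest of their group by Dixon's criterion in 18 comparisons within a group, on 2 measures. For normally distributed values chance flags about 1 in 20 groups. These shares are bounded and often 0, so the rate for them is not known. In the group titled 2ul-mdc-pk, of the proteinase K test (n = 6), replicate 3 had 61.8% of the windows of the interval positive, where the next library had 0.909%. The same library had 37.3 points more of the interval than of the rest of chromosome 11, with the next at −2.95. In the group with 23 PCR cycles (n = 5), replicate 4 had 13.6% of the interval positive, with the next at 0.909%. In the group of protocol c of the reagent-volume test (n = 10), replicate 3 had 28.6 points more of the interval than of the rest of chromosome 11, with the next at −8.17.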

How the results depend on the processing

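The difference between the sides of Kcnj2 had no stable sign. It was −0.00317 on the covariance scale with windows positive in at least 40 libraries, −0.00144 with a run of 3 windows around the gene, and −0.00182 to 0.00368 over the 11 omissions of an experiment. The Sox9 difference stayed below 0, from −0.0163 to −0.0114 over those omissions, and in no alternative passed the threshold after adjustment. The contrast at 111.8 Mb stayed above 0 and past no threshold, from 0.000366 to 0.00392 over the omissions. Detection of the interval relative to the rest of chromosome 11 was −2.87 to −3.82 points under other filters of windows and libraries. The Sox9 and Kcnj2 pair stayed linked, with a Dʹ of 0.241 to 0.316 over the omissions and 0.364 with a run of 3 windows around each gene. The desert minimum moved between 111.12 and 111.96 Mb over the omissions and stood at 110.96 Mb with a 200 kb square. Linked pairs numbered 4877 of 5520 with stratification by coverage (88.4%, beside 75.9% over chromosome 11 at the same distances), and 4145 of 4377 with windows positive in at least 40 libraries (94.7%, beside 84.7% with no weighting for distance). No window was called with a minimum of 25 libraries. No paired analysis was possible because replicate numbers only name the libraries. Unknown depth and the number of libraries limit what could be resolved.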
